A study of Mus musculus with 20 samples.

Results

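PT S1 is the cluster of kidney cells that the authors named for the first segment of the proximal tubule (PT). Its members were all cells that carry the name PT S1 in the authors' annotation of 18 single-cell libraries, 11175 of 113579 cells (9.84%) in 18 clusters. Of these, 8339 (74.6%) came from control kidneys, 1828 (16.4%) from kidneys after short and 1008 (9.02%) from kidneys after long ischemia-reperfusion injury (IRI). The label was given by hand from marker genes. The tables used here hold a cluster name, a group and map coordinates for each cell and no expression values, so the markers Slc5a2 and Slc5a12 were not analysed here and the label was not checked against them.

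The proximal tubule takes back most of the glucose, amino acids, phosphate and bicarbonate that the glomerulus filters, and its first segment, S1, lies directly behind the glomerulus. S1 cells are rich in mitochondria and depend on oxidative metabolism. Slc5a2 encodes SGLT2, the glucose transporter of the early segments, and Slc5a12 encodes a sodium-coupled lactate transporter. The last segment, S3, runs into the outer medulla and is known as the segment most exposed to ischemia, and the loop of Henle (LOH) follows it.

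Whole-kidney digests came from male C57Bl/6J mice, 10 to 12 weeks old at surgery. Both renal pedicles were clamped for 23 min (IRI short) or 30 min (IRI long), and kidneys were taken at 1, 3 or 14 d. There were 2 libraries for each ischemia time and day and 6 control libraries without ischemia, each taken as 1 mouse. A second annotation, of 20 libraries with 136794 cells, adds 1 library of IRI long with VX-765 (100 mg/kg, an inhibitor of caspase-1 and thus of pyroptosis) and 1 of IRI long with liproxstatin (10 mg/kg, a ferroptosis inhibitor), both at 14 d. Libraries are called here by the prefix of their cell names. The prefix gives a library its group through the label of its cells, but no replicate number.

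Depth is the number of cells of a library, 2272 to 14320 for control, 2967 to 10917 after IRI short and 2064 to 7847 after IRI long. PT S1 cells numbered 277 to 3564 per control library, 89 to 735 per IRI short library and 83 to 231 per IRI long library. The largest number, 3564, came from the control library Scl. Of the 6 control libraries, 5 (Scl and norm1 to norm4) shared cell barcodes with one another at 0.977 to 1.66 per 1000000 pairs of cells, against 0.0746 to 0.529 among norm5 and the 12 IRI libraries. Across the 2 sets the rate was 0 to 0.123. Of the PT S1 barcodes, 18 occurred in more than 1 library. The labels do not name this split, which separates all control libraries but norm5 from IRI, so values with norm5 as the only control are given where they differ.

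PT S1 made up a smaller part of the cells after both ischemia times. In the control libraries the fraction ran from 11.3 to 27.0% with a median of 21.9%, and PT S1 ranked between 2 and 4 of 18 clusters by size in each. After IRI short it ran from 2.18 to 6.73% with a median of 4.42%, and after IRI long from 1.63 to 4.02% with a median of 3.33%. Every IRI library was below every control library, and there PT S1 ranked between 7 and 13. Of the 18 clusters, 16.7% lay below control without overlap after IRI short and 16.7% after IRI long, and these were PT S1, PT S3 and the intercalated cells (IC) both times. Counting both directions, 61.1% of clusters did not overlap with control after IRI short and 44.4% after IRI long.

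The mean fraction was 19.9% ± 6.91 (SD, n = 6) for control, 4.46% ± 1.93 after IRI short and 3.06% ± 0.852 after IRI long, 4.47-fold and 6.51-fold below control. The difference was -15.5 percentage points for IRI short and -16.9 for IRI long, each with p = 0.00216 in a two-sided exact permutation test over libraries, the smallest it can give (adjusted p = 0.0195 over 18 comparisons). IRI long and IRI short differed by -1.40 points (exact permutation within days, p = 0.167, adjusted p = 0.273), from -2.11 without IRF11 to -0.68 without IRF3. With norm5 as the only control, at 18.9%, the differences were -14.4 and -15.8 points.

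**Figure D1:**
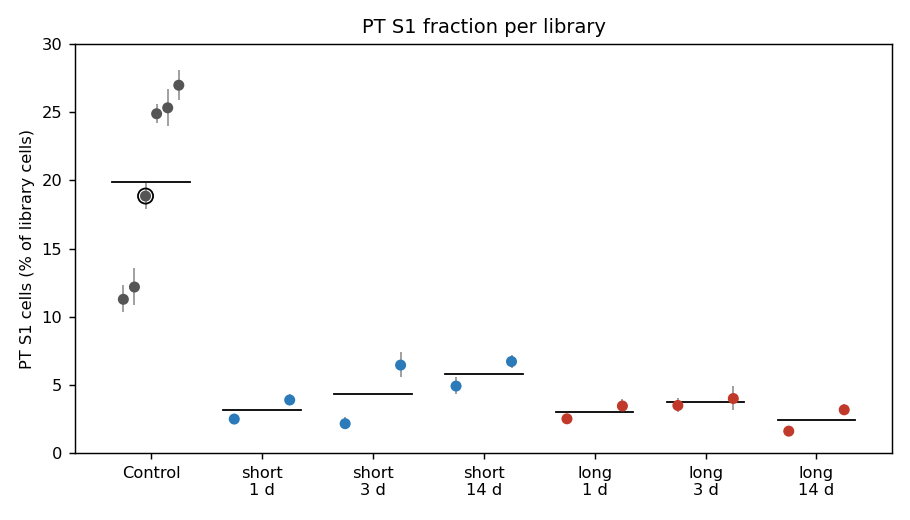
PT S1 cells as percent of all cells of a library (vertical axis), by group and day (horizontal axis). Each point is a library (grey control, blue IRI short, red IRI long), grey bars are exact 95% binomial (Clopper-Pearson) intervals for counting error, black lines are group means and the ringed point is norm5. All 12 IRI libraries lie at or below 6.73%, and the control libraries begin at 11.3%.

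The control libraries themselves fell apart into high and low fractions. Scl held 24.9% PT S1 cells (95% interval 24.2 to 25.6%), norm1 25.3% and norm2 27.0%, and norm5 followed with 18.9%. Norm3 held 12.2% (10.9 to 13.6%) and norm4 11.3% (10.3 to 12.3%). The counting intervals of norm3 and norm4 did not meet those of Scl, and they cover counting error only.

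A fraction of all cells also moves with the other cells of the digest, and immune clusters took 10.8% ± 4.83 of a control library, 48.9% ± 10.3 of an IRI short library and 67.4% ± 14.5 of an IRI long library. Among non-immune cells PT S1 made up 13.2 to 28.7% for control, 4.05 to 13.8% after IRI short and 4.35 to 15.2% after IRI long, so that the ranges now overlapped. IRI short was still lower by this measure (difference -13.2 points, exact permutation p = 0.00433, adjusted p = 0.0260). IRI long was not called (-11.7 points, exact permutation p = 0.0130, adjusted p = 0.0584).

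Among tubule cells alone (PT S1, PT S3, LOH, DCT, PC and IC) PT S1 made up 23.0% ± 7.05 for control, 10.9% ± 4.77 after IRI short and 15.9% ± 7.21 after IRI long. The difference from control was -12.2 points for IRI short (exact permutation, adjusted p = 0.0487) and -7.10 points for IRI long (adjusted p = 0.230). IRI long now lay 5.09 points above IRI short, a difference that did not pass either (exact permutation within days, adjusted p = 0.2). The part of immune cell number in the lower fraction of IRI long therefore cannot be told apart from that of PT S1 cell number in these data.

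PT S1 was then followed by day. At 1 d its fraction was 3.91% in IRF2 of IRI short, and 3.47% in IRF1 and 2.54% in IRF5 of IRI long. At 3 d it was 6.47% in IRF3 and 2.18% in IRF11 of IRI short, and 4.02% in IRF7 and 3.51% in IRF4 of IRI long. The pair at 3 d of IRI short spanned nearly the whole range of the IRI short group. At 14 d it was 6.73% in IRF10 and 4.94% in IRF8 of IRI short, and 3.20% in IRF9 and 1.63% in IRF12 of IRI long. Only at 14 d did both IRI short libraries lie above both IRI long libraries.

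On the logit scale, the log of the odds that a cell is PT S1, limma over all 18 clusters called PT S1 lower than control at every day of both ischemia times. For IRI short the change was -1.98 at 1 d (SE 0.38, limma adjusted p = 0.000178), -1.79 at 3 d (limma adjusted p = 0.000359) and -1.35 at 14 d (limma adjusted p = 0.00611). These are odds of 0.138, 0.167 and 0.260 of the control odds. The same test called 16.7% of clusters lower at each of these days, and 55.6%, 72.2% and 55.6% in either direction.

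For IRI long the change was -2.04 at 1 d (limma adjusted p = 0.000123), -1.79 at 3 d (limma adjusted p = 0.000285) and -2.31 at 14 d (limma adjusted p = 3.54e-05), with odds of 0.130, 0.166 and 0.0996 of control. Here limma called 16.7%, 27.8% and 38.9% of clusters lower, and 61.1%, 88.9% and 72.2% in either direction. With the barcode set as a term, a fit in which norm5 alone carries the control level of the larger set, the call at 14 d of IRI short was lost (-1.33, limma adjusted p = 0.0670), and it was also lost without IRF8 (-1.18, limma adjusted p = 0.102). With only non-immune clusters in the denominator, IRI short at 14 d and IRI long at 3 and 14 d did not pass (limma adjusted p = 0.114, 0.142 and 0.113).

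IRI long against IRI short gave -0.06 at 1 d (SE 0.47, limma adjusted p = 0.946), 0.00 at 3 d (limma adjusted p = 0.992) and -0.96 at 14 d (limma adjusted p = 0.141). PT S1 was called at none of these days, and it stayed above 0.05 before adjustment too. Limma called 5.56%, 0% and 33.3% of the clusters, and 3 of 18 lay under 0.05 at 3 d before adjustment. The test of the difference between days did not pass for this contrast (14 d minus 1 d -0.90, limma adjusted p = 0.378, and 14 d minus 3 d -0.96, limma adjusted p = 0.596).

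With time after ischemia the mean fraction was 5.83% at 14 d against 3.77% at 1 and 3 d after IRI short. After IRI long it was 2.41% at 14 d against 3.39% before. Both comparisons gave p = 0.267 in the exact permutation test of 2 against 4 libraries, which cannot go below 0.0667. Leaving out 1 library, the difference for IRI short ran from 1.17 points without IRF10 to 2.96 without IRF3 or IRF8, and that for IRI long from -1.75 without IRF9 to -0.19 without IRF12. The difference for IRI long, -0.97 points, turned to 2.01 points when only non-immune cells were counted.

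To ask how PT S1 stood against the other PT cluster, PT S1 cells were taken as percent of PT S1 and PT S3 cells together. This share ran from 28.7 to 62.1% for control with a median of 38.9%, from 32.1 to 47.1% after IRI short with a median of 38.8%, and from 14.6 to 63.4% after IRI long with a median of 39.8%. The 3 ranges lay over each other. PT S3 outnumbered PT S1 in 5 of 6 control, 6 of 6 IRI short and 5 of 6 IRI long libraries. Not all PT S3 cells kept a proximal name in the second annotation, described below. It named 10248 of the 17210 PT S3 cells PST, 4350 PT, 444 PCT and 1114 DCT1, a distal tubule name. Of the 11175 PT S1 cells, 78 were named DCT1.

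The mean share was 41.0% ± 12.7 for control, 39.9% ± 5.22 after IRI short and 40.2% ± 15.7 after IRI long (SD, n = 6 each). The difference from control was -1.19 points for IRI short (exact permutation p = 0.859, adjusted p = 0.920) and -0.85 points for IRI long (exact permutation p = 0.920, adjusted p = 0.920), while IRI long and IRI short differed by 0.34 points (exact permutation p = 0.889). These signs turned when single libraries were left out. The control library norm5 was the highest control at 62.1%, and against norm5 alone the differences were -22.3 and -21.9 points. A difference between PT S1 and PT S3 in how their fractions changed was thus not detectable with this spread between control libraries.

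At the extremes of IRI long, IRF7 (3 d) had 63.4% PT S1 among PT cells (54.5 to 71.6%) and IRF12 (14 d) 14.6% (12.2 to 17.3%). IRF12 held 115 PT S1 and 673 PT S3 cells, and IRF7 held 83 and 48. The other 14 d library of IRI long, IRF9, was at 38.7%, so the low share belonged to 1 of 2 libraries. The second annotation, described below with its clusters PCT, PST and PT, did not set IRF12 apart. There PCT made up 32.0% of PCT and PST cells in IRF12, 34.3% in IRF9 and 34.6% in IRF7. IRF12 held 62 PCT, 132 PST and 166 PT cells there, together fewer than its 673 PT S3 cells.

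Against LOH, the tubule segment behind the proximal tubule, PT S1 was lower after short ischemia. The log2 ratio of PT S1 to LOH cells ran from -0.70 to 1.38 for control (median 0.04), from -3.56 to -0.61 after IRI short (median -1.82) and from -3.07 to -0.12 after IRI long (median -0.58). Means were 0.25 ± 0.97, -1.97 ± 1.11 and -1.01 ± 1.11. The groups overlapped in part, since norm3, norm4 and norm5 lay below zero at -0.57, -0.70 and -0.54.

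The ratio differed from control by -2.22 after IRI short (exact permutation p = 0.00433, adjusted p = 0.0260). After IRI long the difference was -1.25 (exact permutation p = 0.0693, adjusted p = 0.156). Against norm5 alone the differences were smaller, -1.43 for IRI short and -0.46 for IRI long. IRI long lay 0.97 above IRI short (exact permutation within days p = 0.0185, adjusted p = 0.0667), and of the 12 libraries left out in turn this passed only without IRF5, at 1.24 (adjusted p = 0.0390). LOH made up 16.8% ± 6.40 of control, 17.6% ± 8.58 of IRI short and 7.71% ± 7.04 of IRI long libraries.

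By day, the 3 lowest ratios were those of 1 d libraries, but IRF1 of 1 d lay above IRF11 of 3 d. The ratio was -2.78 in IRF2 of IRI short and -1.43 in IRF1 and -3.07 in IRF5 of IRI long. At 3 d it was -2.36 in IRF11 and -0.61 in IRF3 of IRI short and -0.27 in IRF4 and -0.12 in IRF7 of IRI long, and at 14 d it was -1.27 in both IRI short libraries and -0.74 in IRF12 and -0.42 in IRF9 of IRI long. The order by day was seen in the values first and was not tested.

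**Figure D2:**
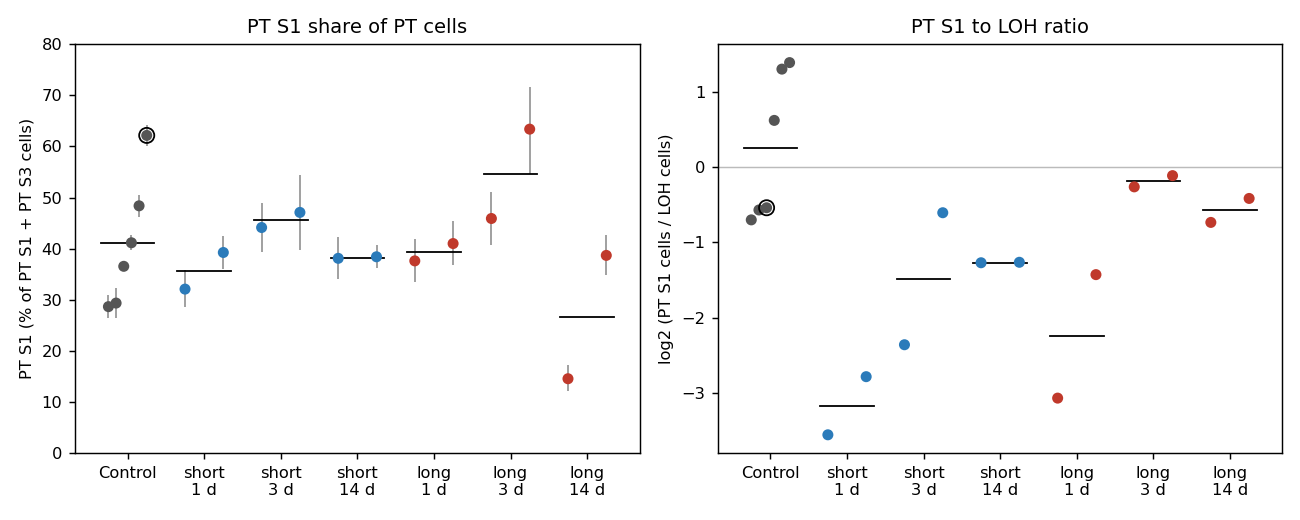
Left, PT S1 cells as percent of PT S1 and PT S3 cells of a library; right, log2 ratio of PT S1 to LOH cells, both by group and day (horizontal axis). Each point is a library (grey control, blue IRI short, red IRI long; norm5 ringed), black lines are group means and grey bars, left only, are exact 95% binomial intervals for counting error. Means of the share lie between 26.6 and 54.6%, while the ratio reaches -3.56 at 1 d.

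The same cells have a second name in the annotation of 20 libraries, in which the proximal tubule is split into PCT (proximal convoluted tubule), PST (proximal straight tubule) and PT. All 11175 PT S1 cells were found there. Of these, 6473 (57.9%) were named PCT, 3434 (30.7%) PT, 908 (8.13%) PST and 360 (3.22%) some other cluster. PCT was thus the nearest counterpart of PT S1, since 92.5% of the 6997 PCT cells in these libraries were PT S1. That part pools the cells of all libraries and differed between them. PT S1 made up 2338 of 2469 PCT cells in the control library Scl. It made up 91 of 153 in IRF1 of IRI long at 1 d, the lowest part. In the IRI long libraries of 14 d it made up 53 of 62 (IRF12) and 131 of 150 (IRF9). The name PT was mixed, with 31.9% PT S1 and 40.4% PT S3 cells, whereas PST was 79.3% PT S3 and 7.03% PT S1.

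Of a library's PT S1 cells, 44.8 to 65.6% were named PCT for control (median 57.3%), 38.5 to 63.5% after IRI short (median 50.0%) and 38.2 to 56.7% after IRI long (median 47.4%). The groups overlapped. The mean was 55.4% ± 8.25 for control, 49.7% ± 9.72 after IRI short and 48.0% ± 7.17 after IRI long. The difference from control was -5.76 points for IRI short (exact permutation p = 0.290, adjusted p = 0.435) and -7.40 points for IRI long (exact permutation p = 0.128, adjusted p = 0.230). IRI long and IRI short differed by -1.64 points (exact permutation p = 0.713).

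The name PT took its largest parts of the PT S1 cells at 1 d. It took 43.1% in IRF2 of IRI short, and 50.5% in IRF1 and 43.7% in IRF5 of IRI long. It took 27.0 to 36.7% for control and 26.5 to 41.7% in the 8 IRI libraries of 3 and 14 d. All 4 libraries of 1 d lay above all other libraries, and in 3 of them more PT S1 cells were named PT than PCT, which happened in 0 of the other libraries. This pattern was chosen after its values were seen and is given without a test.

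Names outside the proximal tubule were rare for control, 1.81 to 4.46% of a library's PT S1 cells, with norm5 the highest. They reached 1.89 to 14.6% after IRI short and 3.30 to 13.0% after IRI long. The highest was IRF11 (3 d, IRI short), where the number of PT S1 cells was 89, followed by IRF12 and IRF5 of IRI long at 13.0 and 12.6%. With PCT, PST and PT counted together, IRI long lay 5.43 points below control (exact permutation p = 0.00649, adjusted p = 0.0292). The difference was -3.21 points for IRI short (exact permutation p = 0.0519, adjusted p = 0.117), and IRI long and IRI short differed by -2.22 points (exact permutation within days, adjusted p = 0.551). Against norm5 alone the differences were -1.26 points for IRI short and -3.48 for IRI long. Immune names (Neutro_1, Neutro_2, Macro, T cell, B cell and NK) took 79 of the 11175 cells, up to 5.62% in IRF11.

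**Figure D3:**
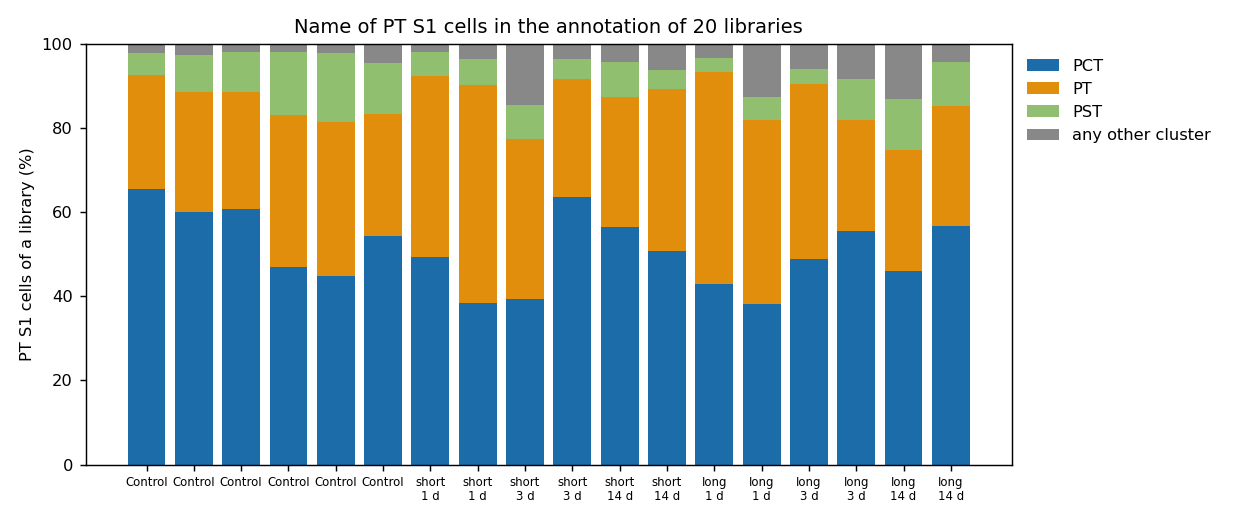
Names that PT S1 cells carry in the annotation of 20 libraries, as percent of the PT S1 cells of each library (vertical axis), for 6 control, 6 IRI short and 6 IRI long libraries (horizontal axis). Colours stand for PCT, PT, PST and any other cluster. The part named PT is largest, 43.1 to 51.8%, in the 4 libraries of 1 d.

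On the UMAP, the 2-dimensional map of all cells whose axes have no unit, PT S1 cells lay in 1 field apart from a few stray cells. Cells with the second name PCT lay low on the second axis (median -1.61) and those named PT high (median 1.91). The cells named PT had the higher median in 18 of 18 libraries. Cells named PST lay on the side of the first axis with lower values (median -8.27, against -6.91 for PCT).

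The distance of a library's PT S1 median from that of the control libraries ran from 0.201 to 0.877 for control, from 0.438 to 0.991 after IRI short and from 0.457 to 1.19 after IRI long. The highest control value was that of norm5. By day, the distance was 0.909 to 1.19 at 1 d, above every control library. At 3 and 14 d it was 0.438 to 0.803, below the value of norm5. This split by day was seen in the values first and was not tested. Means were 0.404 ± 0.254, 0.745 ± 0.203 and 0.777 ± 0.260 map units. The difference from control was 0.341 after IRI short and 0.372 after IRI long, each with exact permutation p = 0.0368 and adjusted p = 0.0946. Without norm5 the differences were 0.619 and 0.657 (exact permutation, adjusted p = 0.0195 for both). Norm5 had its first-axis median at -6.81, within the range of the IRI libraries (-6.92 to -6.49) and apart from the other control libraries (-7.40 to -7.11). By these medians the distances from control thus did not pass with all 6 control libraries. With mean coordinates or on the map of the second annotation, IRI long was called (values in the closing section). On that second map norm5 (-2.84 and 5.79) lay beside Scl (-2.85 and 5.76). IRI medians ran there from -3.96 to -2.42 on the first axis. Only 1 control library, norm5, was on the IRI side of the barcode split, so barcode set and ischemia cannot be told apart here.

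**Figure D4:**
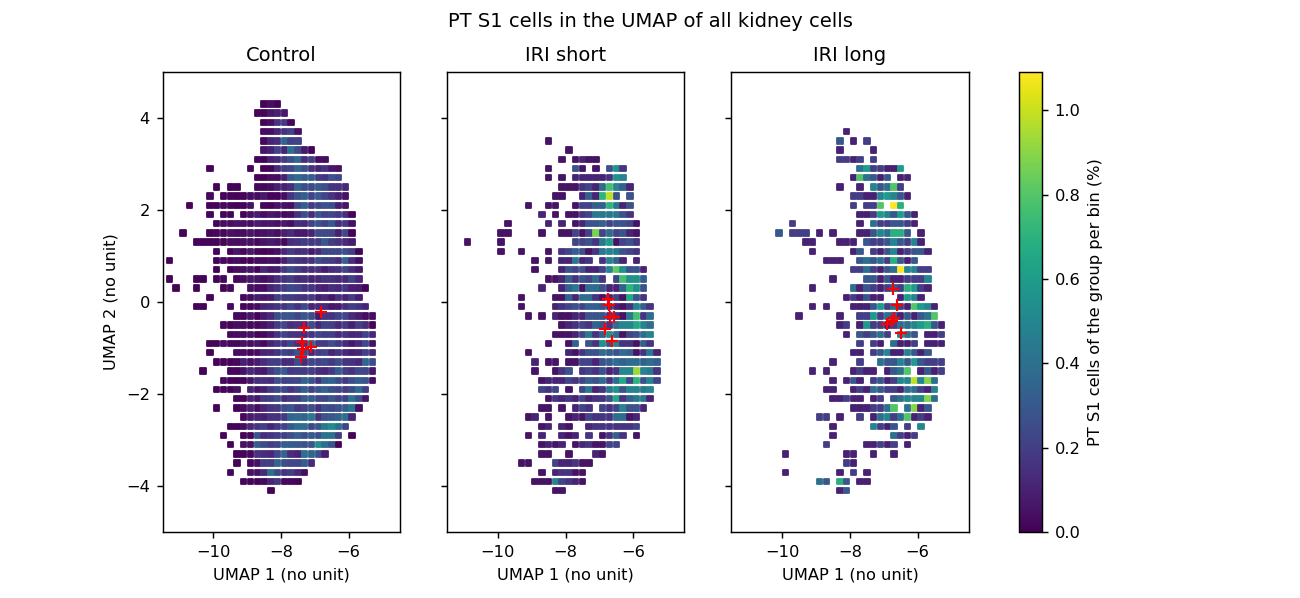
PT S1 cells on the UMAP of all kidney cells, by group; colour gives the percent of the group's PT S1 cells in each square of 0.2 map units, and red crosses are the medians of single libraries. The window leaves out 63 stray PT S1 cells. Medians of the 12 IRI libraries lie between -6.92 and -6.49 on the first axis, as does the rightmost control cross (norm5, -6.81), while the other control crosses lie between -7.40 and -7.11.

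Most PT S1 cells had PT S1 neighbours. Of all 11175 cells, 690 (6.17%) had fewer than 15 PT S1 cells among their 30 nearest cells on the map, and 92 had none. This part ran from 2.63 to 11.2% for control, from 2.24 to 3.65% after IRI short and from 0.943 to 9.05% after IRI long. Norm5 was the lowest control library at 2.63% and lay within the IRI short range, with the other control libraries at 7% or above.

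The mean was 7.83% ± 3.18 for control, 3.02% ± 0.568 after IRI short and 4.17% ± 3.23 after IRI long. IRI short was lower by 4.81 points (difference -4.81, exact permutation p = 0.0108, adjusted p = 0.0487), and the adjusted p was 0.0584 without IRF10 or without IRF8. Against norm5 alone the sign turned, with IRI short 0.391 points higher, so barcode set and ischemia cannot be told apart for this measure either. IRI long differed from control by -3.66 points (exact permutation p = 0.0844, adjusted p = 0.169). PT S3 made up most of the neighbours that were not PT S1, 90.4% for control, 77.0% after IRI short and 69.9% after IRI long. Next came LOH for control and IRI short (2.20 and 5.75%) and the cluster T cell_2 after IRI long (9.26%). These neighbour parts pool the cells of a group and were not compared between libraries, so a few cells can carry the smaller ones. After IRI long 9 cells had no PT S1 neighbour, 6 of them in IRF9.

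For the mice given inhibitors only the second annotation could be used, so its cluster PCT stood for PT S1. Their libraries are not in the first annotation, so the part of their PCT cells that would be PT S1 is not known. After VX-765, 1405 of 10610 cells were PCT (13.2%, exact 95% binomial interval 12.6 to 13.9%), and after liproxstatin 2407 of 12605 (19.1%, 18.4 to 19.8%). The IRI long libraries of the same day held 0.879% in IRF12 and 2.07% in IRF9, and control libraries 5.72 to 17.2% (12.1% ± 5.38, n = 6). The VX-765 library lay within the control range and the liproxstatin library above it, and both lay above all 12 IRI libraries without inhibitor, whose highest PCT fraction was 5.36%. Norm5 held 10.9%, below both inhibitor libraries. Shared barcodes were not counted for the inhibitor libraries, so their side of the barcode split is not known. With 1 library each there is no test, the 2 inhibitors were not compared with each other, and the intervals cover counting error only.

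The other proximal names were also more frequent there than after IRI long alone at 14 d. PST took 26.7% of cells after VX-765 and 41.6% after liproxstatin, against 1.87 and 3.97% in the IRI long libraries, and PT took 18.8 and 21.9% against 2.35 and 5.17%. Clusters named Neutro_1, Neutro_2, Macro, T cell, B cell and NK, counted as immune, made up 11.8 and 5.13% of the inhibitor libraries. They made up 75.2% of IRF12 and 64.5% of IRF9. No cluster there is named for monocytes, and the first annotation gave 80.6 and 79.0% immune cells for IRF12 and IRF9. The cluster Fibro held 483 and 638 cells in them, against 499 and 664 Mono_1 cells in the first annotation. Whether these are the same cells was not tested. Within PCT, PST and PT together, PCT had a share of 22.5% after VX-765 (21.5 to 23.6%) and 23.1% after liproxstatin (22.3 to 23.9%). That share was 17.2% (13.5 to 21.5%) in IRF12 and 18.5% (15.9 to 21.3%) in IRF9, and 14.0 to 31.2% for control, so both inhibitor libraries lay inside the control range. The labels name no vehicle library at 14 d, and the inhibitor libraries came from a separate set of experiments, so inhibitor, vehicle and experiment cannot be told apart.

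**Figure D5:**
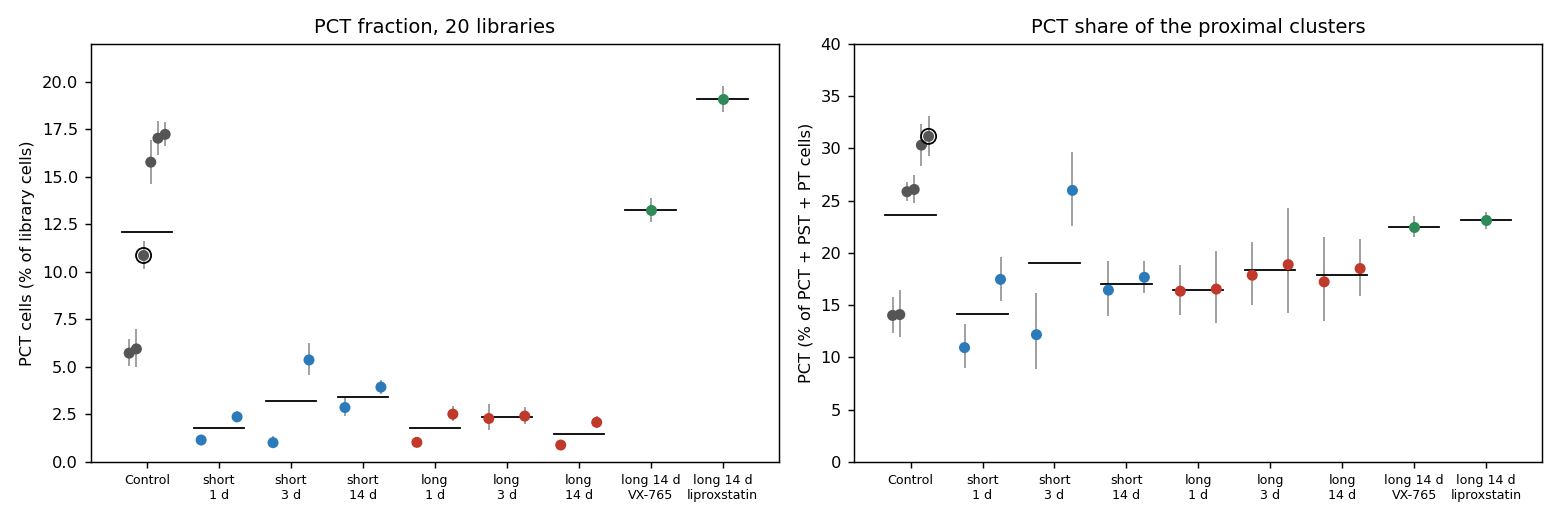
PCT cells in the annotation of 20 libraries, left as percent of all cells and right as percent of PCT, PST and PT cells of a library, by group and day (horizontal axis). Each point is a library (grey control, blue IRI short, red IRI long, green IRI long with an inhibitor; norm5 ringed), grey bars are exact 95% binomial intervals for counting error and black lines are group means. On the left the inhibitor libraries stand at 13.2 and 19.1%, on the right at 22.5 and 23.1%, inside the control range of 14.0 to 31.2%.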

How the data were processed

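For each cell the authors deposited a cluster name, a group with its day, and 2 UMAP coordinates (a score without unit). They had aligned reads with Cell Ranger (mm10, per the labels), filtered cells, removed doublet-like cells, integrated libraries with LIGER and named Louvain clusters by hand. The second annotation's making is not given in the sources used here for its cell number. Counts per cell were not analysed here.

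Cells were counted per library and cluster in python 3.11.15 (pandas 2.3.3, numpy 2.4.6, scipy 1.17.1; figures with matplotlib 3.10.9). Group means of 6 measures were compared over libraries by two-sided exact permutation (924 ways, or 216 where IRI long and IRI short were exchanged inside each day) and adjusted by Benjamini-Hochberg over 18 comparisons. Ratios and logits had 0.5 cells added. Day contrasts used limma 3.58.1 in R 4.3.3 with 7 group means, adjusted over 18 clusters at 0.05. The fit was also run on simulated data with the same spread for all clusters and changes in IRI long at 1 d only. That setting differs from these data, so the run checks the code and no result. P-values measure the spread between libraries. The cluster and its comparisons were chosen with earlier results of these data known. Clusters were named by a rule: PT S1, PT S3, LOH, PCT, PST, PT, any second name above 5% in a group, and the commonest neighbour. IC, T cell_2, DCT1, Fibro, Mono_1, the immune names and the libraries named beyond extremes or changed calls were added after their values were seen. Alternatives were other denominators, scales, annotations and neighbour numbers, thinning to 2064 cells, and leaving out each library. The barcode set as a term and norm5 as the only control were added after seeing the data. The values of 1 IRI short library at 1 d entered the group results and are not reported here singly.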

Additional observations from a re-analysis of the deposited data

How the results depend on the processing

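Leaving out each library in turn kept direction and call in 262 of 288 values, and the other settings not added after seeing the data in 86 of 103. Where a call or sign changed, the cause was not tested. With other denominators, the PT S1 fraction of IRI long against control was -11.7 points of non-immune and -7.10 of tubule cells (not called), IRI long against IRI short turned to 1.56 and 5.09, and IRI long at 14 d against earlier days turned to 2.01. The share of PT cells of IRI long against control turned to 0.0393 as PCT of PCT and PST, and IRI long against IRI short to -0.0532 as a log2 ratio to PT S3. As PCT of PCT, PST and PT the mean share was 23.6% ± 7.69 for control, 16.8% ± 5.32 after IRI short and 17.6% ± 1.04 after IRI long. IRI long became called for PCT, PST and PT together (-5.43) and for distance by mean coordinates (0.301) or the second map (0.556). With norm5 as the only control, chosen after seeing the data, the share of PT cells moved to -22.3 and -21.9, and cells among other cells to 0.391 (reversed) and 1.55.

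On the logit scale, limma with the centred log-ratio turned IRI long against IRI short to 0.0597 at 1 d and 0.0267 at 3 d. With non-immune clusters alone these were 0.20 and 0.41, and IRI short at 14 d (-0.73), IRI long at 3 d (-0.59) and IRI long at 14 d (-0.75) lost their call against control. So did IRI short at 14 d with the barcode set as a term (-1.33).

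Without 1 library, the share of PT cells ran from -3.67 to 3.03 for IRI short against control, from -5.48 to 4.27 for IRI long against control and from -3.68 to 4.36 between them. IRI long against IRI short ran from 0.68 to 1.26 for the log2 ratio to LOH, from -5.68 to 2.39 for cells named PCT, from -0.0055 to 0.0687 for distance and from -0.197 to 2.50 for cells among other cells. Distance from control ran from 0.246 to 0.619 for IRI short and from 0.278 to 0.657 for IRI long, and cells among other cells for IRI short from -5.85 to -4.14. The logit change ran from -1.51 to -1.18 for IRI short at 14 d, and for IRI long against IRI short from -0.28 to 0.17 at 1 d and from -0.57 to 0.56 at 3 d. A group left with 1 library was taken to vary like the others. No paired analysis was possible because library names carry no replicate number of the labels. The number of cells limits values of single libraries most where PT S1 cells are few (83 in IRF7, 89 in IRF11), and the spread between 2 libraries per day limits the rest.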
